A study of Mus musculus with 4 samples.

Results

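Dividing CD4 T cells were described in single-cell transcript counts from the lamina propria of the small intestine, the tissue layer that supports the lining epithelium. The mice were wildtype C57Bl/6, no treatment is listed, and all 4 libraries form 1 group, so no genotype, age or time point was compared. Per the labels' protocols, Peyer's patches were cut away, the tissue was treated with EDTA and digested with collagenase D, and live cells positive for CD45, CD3 and CD4 and negative for the dead-cell dye 7AAD were sorted into a Chromium 5′ library. The labels give no age or sex and do not state how many mice each library holds. Replicates are therefore named by library, and p-values measure only the spread between libraries.

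Mitotic-phase cells were chosen by the UMI counts (counts of distinct captured transcripts) of 7 genes. Barcodes were kept from 500 genes and 1000 UMIs upward, provided that mitochondrial UMIs made up no more than 10%. A kept barcode was a mitotic-phase cell when at least 3 of Mki67, Top2a, Cdk1, Birc5, Ube2c, Ccnb2 and Cenpf had a UMI. Of 22534 kept cells, 679 met the rule. The cells set against them are the 17853 that held none of the 7 genes, called gate-negative cells here, and 1545 Mcm-rich cells, which had a UMI of at least 3 of Mcm2 to Mcm7 and of at most 2 of the 7.

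A cell that divides first copies its DNA in S phase, when Mcm2 to Mcm7 form the helicase that opens the double strand and histone genes are transcribed. Transcripts for the spindle, the kinetochores and the kinases that drive mitosis build up afterwards, in G2 and M phase, and are removed when the cell returns to rest. In the gut lamina propria most CD4 T cells are antigen-experienced effector or regulatory cells, and division there renews or expands these pools.

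The 7 genes of the rule mark different steps. Mki67 coats mitotic chromosomes, Top2a untangles DNA, Cdk1 is the mitotic kinase and Ccnb2 one of its cyclins. Birc5 (survivin) belongs to the chromosomal passenger complex, Ube2c feeds the ubiquitin ligase that ends mitosis, and Cenpf sits at kinetochores. In mitotic-phase cells Birc5 was detected in 91.5% ± 2.56 of cells and Mki67 in 90.3% ± 1.24 (SD, n = 4 libraries). Top2a was found in 79.9% ± 1.99, Ccnb2 in 76.1% ± 1.19, Ube2c in 72.3% ± 3.74, Cdk1 in 65.9% ± 5.34 and Cenpf in 55.0% ± 1.64. These genes are at 0 in gate-negative cells by definition, so the contrast in them is no finding.

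Promoters of 4 of these genes are shown because 6 of the 7 share motifs that the remaining one, Birc5, lacks. Sequences are from RefSeq on GRCm38.p6 (mm10), the 250 bases before the gene start, 5′ to 3′ on the gene's strand. Capitals mark CCAAT, the box bound by NF-Y, and TTTGAA or TTCGAA, the cell cycle homology element contacted by LIN54, on either strand. On the opposite strand CCAAT reads ATTGG and TTTGAA reads TTCAAA, and in Ube2c a CCAAT and an ATTGG overlap.
Mki67, chr7:135716380-135716629, minus strand: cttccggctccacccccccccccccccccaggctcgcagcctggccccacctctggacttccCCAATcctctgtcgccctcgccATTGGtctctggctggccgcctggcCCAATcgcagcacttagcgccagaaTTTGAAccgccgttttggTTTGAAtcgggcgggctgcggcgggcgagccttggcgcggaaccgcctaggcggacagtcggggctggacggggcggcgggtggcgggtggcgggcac
Top2a, chr11:99024190-99024439, minus strand: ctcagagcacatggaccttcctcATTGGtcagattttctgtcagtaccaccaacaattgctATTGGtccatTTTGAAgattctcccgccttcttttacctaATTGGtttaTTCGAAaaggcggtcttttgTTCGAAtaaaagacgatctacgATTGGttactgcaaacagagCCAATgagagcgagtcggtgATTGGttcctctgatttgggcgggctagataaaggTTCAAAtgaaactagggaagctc
Ube2c, chr2:164769679-164769928, plus strand: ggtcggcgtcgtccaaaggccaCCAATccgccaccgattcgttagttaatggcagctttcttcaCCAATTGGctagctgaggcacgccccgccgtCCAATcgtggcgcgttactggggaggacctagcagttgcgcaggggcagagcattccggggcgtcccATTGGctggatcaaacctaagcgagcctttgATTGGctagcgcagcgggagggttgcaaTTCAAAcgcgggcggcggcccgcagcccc
Birc5, chr11:117848987-117849236, plus strand: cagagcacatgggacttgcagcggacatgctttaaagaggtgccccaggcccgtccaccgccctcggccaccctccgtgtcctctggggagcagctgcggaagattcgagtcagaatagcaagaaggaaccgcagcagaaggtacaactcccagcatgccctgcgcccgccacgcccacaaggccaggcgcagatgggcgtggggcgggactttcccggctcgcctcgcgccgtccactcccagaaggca

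In windows of 300 bases that end 50 bases into the gene, Mki67, Top2a, Cdk1, Ube2c, Ccnb2 and Cenpf each held TTTGAA or TTCGAA together with at least 2 CCAAT boxes. Both features stood together in 2.31% of 32851 RefSeq windows of the same length, while TTTGAA or TTCGAA, with or without CCAAT, stood in 19.2% and at least 2 CCAAT boxes in 11.7%. Counted by gene, where any window of the gene may hold both, 723 of 27025 genes did so (2.68%). Of spindle, kinesin and cytokinesis genes with a window 11 of 28 held both (39.3%). The counts were 5 of 37 DNA replication genes (13.5%) and 0 of 17 effector cytokine genes. A match describes the letters only, and a window without one says nothing of what binds there.

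The share of kept cells in the mitotic-phase class was 3.80% in library 1 (215 cells), 3.08% in library 2 (182), 2.10% in library 3 (117) and 3.06% in library 4 (165), a mean of 3.01% ± 0.697 (SD, n = 4). Exact Clopper-Pearson 95% intervals, which cover counting error only, run from 3.31 to 4.33% in library 1 and from 1.74 to 2.51% in library 3. Library 3 thus lay below library 1 beyond counting error, and the others between them. Within the class, 219 cells held all 7 genes, 119 held 6, 98 held 5, 132 held 4 and 111 held 3. Outside it, 417 cells held 2 genes and 3585 held 1.

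Values just inside and just outside the threshold are given without a test. Pooled over libraries, cells with 3 and with 2 of the 7 genes had 3.57 and 1.87 CPM of Plk1, the kinase that starts spindle assembly (CPM is UMIs per 1000000 UMIs of the class). Both Plk1 values are low, beside 0.964 CPM in cells with none of the 7, and rest on few UMIs. Ccnb1, a cyclin of mitotic entry, stood at 11.6 CPM with 3 genes and 2.497 CPM with 2 genes. Stmn1, which takes microtubules apart, was at 502 and 153 CPM, and Mcm5 at 190 and 99.9 CPM. At 7 genes Plk1 reached 144 CPM, Ccnb1 127 CPM and Stmn1 1657 CPM. Il17a followed no such order, with 448 CPM at 2 genes, 336 CPM at 3, 678 CPM at 5 and 133 CPM at 7.

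**Figure D1:**
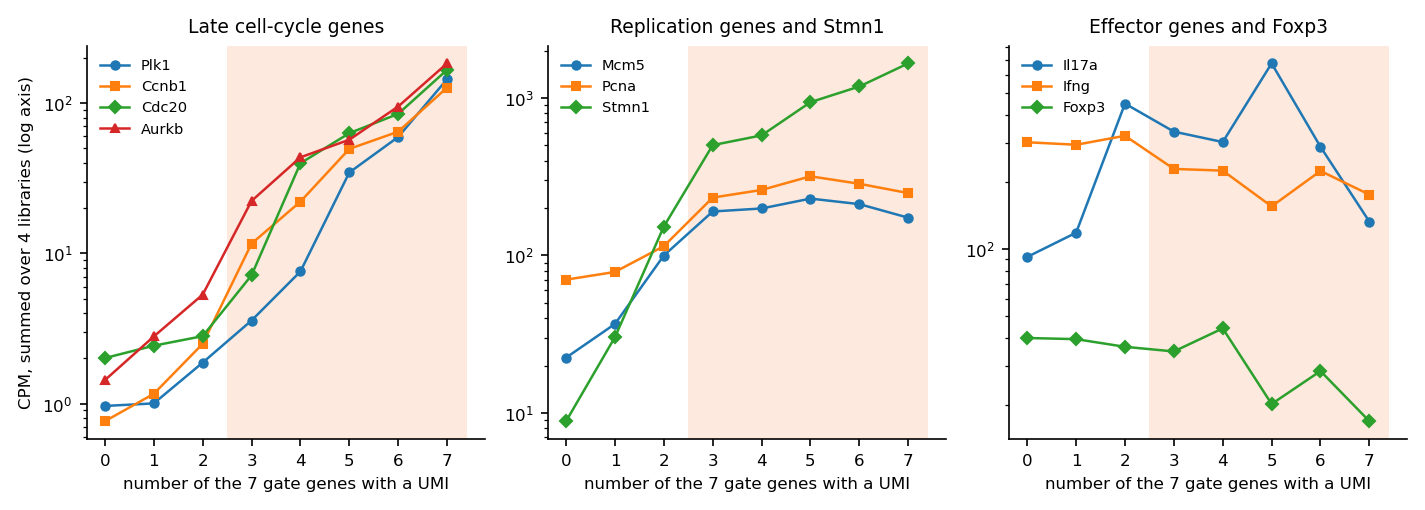
Levels in CPM (log axis, UMIs summed over the 4 libraries) of late cell-cycle genes, replication genes and effector or Foxp3 transcripts, against the number of the 7 rule genes with a UMI in the cell; shading marks the mitotic-phase class. Plk1 and Ccnb1 climb to 144 and 127 CPM at 7 genes, while Foxp3 stands at 16.96 CPM at 7 genes, 44.1 CPM at 4 genes and 40.0 CPM at 0 genes.

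The sort was checked against marker transcripts. Cd3e, a chain of the T cell receptor complex, had a UMI in 677 of the 679 mitotic-phase cells, and Cd4 in 609. Summed over 7 T cell markers, levels ran from 4053 to 4244 CPM in mitotic-phase cells and from 5446 to 5635 CPM in gate-negative cells. The B cell marker Ms4a1, the stromal genes Col1a1 and Col3a1, the endothelial Cdh5, the epithelial Krt19 and the mast cell genes Cpa3 and Mcpt1 were at 0 in all mitotic-phase cells. They were also rare in the 17853 gate-negative cells, from 0 cells for Col3a1 to 13 cells for Col1a1, so these zeros say little. Other markers of these lists were present: the endothelial Pecam1, which some leukocytes also carry, had a UMI in 212 mitotic-phase cells, the B cell receptor chain Cd79b in 66 and the epithelial Epcam in 57. B cell markers summed to 7.27 to 16.2 CPM in mitotic-phase cells and 10.4 to 14.3 CPM in gate-negative cells. Stromal and endothelial markers summed to 29.6 to 41.2 CPM and 37.5 to 41.2 CPM in the same order, and epithelial markers to 5.74 to 11.9 CPM and 18.9 to 27.6 CPM. Their part in the results was not tested. Plasma cell markers summed to between 5.13 and 7.53 CPM in mitotic-phase cells, against 127 to 720 CPM in gate-negative cells. Myeloid markers summed to 151 to 194 CPM and 152 to 183 CPM, of which most was Cst3, detected in 526 mitotic-phase cells. CD8 and gamma-delta markers lay at 7.89 to 46.2 CPM against 17.3 to 51.8 CPM. No cell barcode was a mitotic-phase cell in more than 1 library, although 13 of these cells had a barcode that another library also used.

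More UMIs were captured per mitotic-phase cell. Their median depth was 11610, 10601, 11244 and 11912 UMIs in libraries 1 to 4, against 4049, 3555, 3603.5 and 3904 UMIs in gate-negative cells. Per cell they held 2.91, 2.88, 3.05 and 3.24 times as many UMIs as gate-negative cells, and 1.64 to 1.77 times as many as Mcm-rich cells. A rule that asks for 3 detected genes also favours deep cells, and size and selection cannot be told apart here. A lower CPM therefore means a smaller share of the captured UMIs, not fewer molecules. Cd3e fell in share, at 1412 ± 36.3 CPM in mitotic-phase cells against 1934 ± 64.1 CPM, yet averaged 17.8 UMIs per mitotic-phase cell and 8.10 UMIs per gate-negative cell. For this reason values are also given for cells of both classes inside the middle range of mitotic-phase depth, between the 25th and 75th percentile of each library, which holds 339 mitotic-phase and 785 gate-negative cells and is called the depth window. The window narrows the depth gap without closing it: the median depths inside it were 11610, 10601, 11244 and 11912 UMIs in mitotic-phase cells, against 10300, 8444.5, 8860 and 10508 UMIs in gate-negative cells of libraries 1 to 4.

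UMIs were summed per library and class and compared with edgeR's quasi-likelihood test, with the 7 rule genes left out. Against gate-negative cells, 11062 genes were tested and 55.1% passed an adjusted p of 0.05, with 27.7% higher and 27.4% lower in mitotic-phase cells. Of the calls, 50.3% were higher with TMM scaling and 40.0% with library size alone. With so many genes past the threshold a single call carries little weight, so list counts below are read beside these percentages. The cell-cycle lists move with the genes of the rule. Their counts below are calls of the same fit, given as a description and not as evidence.

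Genes of mitosis stood far above gate-negative cells. Of 24 mitotic kinases, cyclins and partners, 22 were higher, with a median log2 fold change of 5.67. Ccna2, a cyclin of S and G2 phase, averaged 281 ± 12.7 CPM in mitotic-phase cells and 0.384 ± 0.198 CPM in gate-negative cells. Aurkb, the kinase of the passenger complex, averaged 102 ± 8.53 CPM and 1.44 ± 0.373 CPM. Cdc20, which activates the ligase that ends mitosis, averaged 93.3 ± 9.61 CPM and 2.01 ± 0.342 CPM. Pttg1 (securin), the guard of sister chromatid cohesion, went the other way, with 90.1 ± 11.8 CPM in mitotic-phase cells and 141 ± 4.94 CPM in gate-negative cells. Lin54, whose protein contacts the TTTGAA element, averaged 54.9 ± 4.96 CPM and 51.4 ± 9.91 CPM.

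Structural genes of division followed the same pattern. All 32 spindle, kinesin and cytokinesis genes were higher (median log2 fold change 4.91), with the tubulin Tubb5 at 1982 ± 130 CPM in mitotic-phase cells and 308 ± 12.6 CPM in gate-negative cells. Of 23 kinetochore and centromere genes 22 were higher (median 5.32), with Cenpa, the centromeric histone, at 435 ± 29.1 CPM and 49.5 ± 12.9 CPM. All 18 chromosome condensation and chromatin genes were higher (median 2.42). Hmgb2, which bends DNA, averaged 3697 ± 138 CPM and 450 ± 38.4 CPM.

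Replication transcripts were present in the same cells. All 44 DNA replication genes (median log2 fold change 2.90) and all 29 replication histones (median 4.33) were higher. Rrm2, a subunit of the enzyme that makes deoxynucleotides, averaged 520 ± 46.4 CPM in mitotic-phase cells and 5.97 ± 0.925 CPM in gate-negative cells. Hist1h1b, a linker histone, averaged 354 ± 71.8 CPM and 1.70 ± 0.667 CPM. With every cell thinned to 2000 UMIs, 73.8% ± 1.76 of mitotic-phase cells had a UMI of an Mcm gene and 48.7% ± 2.70 had one of Plk1, Ccnb1, Cdc20, Aurka, Bub1 or Cenpe. Both kinds were found in 34.6% ± 2.22 and neither in 12.02% ± 1.68. By these transcripts the class held S phase genes as well as mitotic ones, so its name covers more than mitosis itself.

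Outside the cell-cycle lists, the largest increases were in further genes that act in division. Genes of this kind also move with the genes of the rule, so these increases are given as a description. Genes past the threshold were ranked if they moved the same way in all 4 libraries and averaged at least 20 CPM in 1 class. Predicted genes and genes of T cell receptors, immunoglobulin heavy and light chains, ribosomal proteins and mitochondria were left out of this ranking. Pclaf, the clamp-binding factor of replication, averaged 902 ± 59.1 CPM in mitotic-phase cells and 1.23 ± 0.459 CPM in gate-negative cells. The others of the 10 highest were Pimreg, Esco2 (which acetylates cohesin), Mxd3, Neil3 (a DNA glycosylase), Hist1h2bb, Sapcd2, Rad51ap1 (a recombination factor), Fbxo5 (an inhibitor of the mitotic ubiquitin ligase) and Cdkn3, with log2 fold changes from 6.51 to 10.07. Among the ranked genes the largest decrease was in Jchain, an immunoglobulin chain of plasma cells. Jchain was at 2.52, 2.40, 2.14 and 0.429 CPM in mitotic-phase cells. In gate-negative cells it was at 62.9, 342, 141 and 267 CPM, beside the plasma cell markers given above. Jchain, itself such a marker, no longer passed when barcodes with 2 or more markers of other cells were left out (log2 fold change -1.37, adjusted p 0.066). In the depth window it stood at -8.19 (adjusted p 1.1e-14). The other 9 were Tcp11l2, Phf1, Card6, Ccl4, Calca, Qpct, Il7r, Rab6b and Prf1, with log2 fold changes from -2.57 to -1.92.

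Effector cytokines mostly took a smaller share of the UMIs of mitotic-phase cells, and interleukin-17 genes were the exception. Of 17 effector cytokine genes tested, 4 were higher and 9 lower, with a median log2 fold change of -0.55 against -0.06 over all genes tested. The 4 higher were Il17a, Il17f, Il22 and Tgfb1. The lower ones were Ifng, Tnf, Il2, Il4, Il10, Il21, Ltb, Areg and Cd40lg. In the depth window the list had 2 higher and 9 lower of 15 tested, where 39.5% of 8358 genes passed, 21.4% higher and 18.1% lower.

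Il17a, the cytokine that draws neutrophils to epithelia, was at 428, 161, 199 and 345 CPM in mitotic-phase cells of libraries 1 to 4, against 158, 60.2, 60.5 and 88.4 CPM in gate-negative cells. Every mitotic-phase value lay above every value of the other class. The log2 fold change was 1.74 ± 0.08 (SE, adjusted p 1.0e-11). It was smaller, at 0.84 (adjusted p 0.0016), in the depth window. Without barcodes that held 2 or more markers of other cells it was 1.11 (adjusted p 0.00066). That filter was met by 37 to 85 mitotic-phase cells and 481 to 533 gate-negative cells per library. It left 446 of the 679 mitotic-phase cells and 19613 of the 22534 kept cells. Its markers include Cst3, Pecam1 and Epcam, with a UMI in 526, 212 and 57 mitotic-phase cells. Depth moves with the filter, and whether the removed barcodes hold other cells was not tested. A mitotic-phase cell held 3.66 ± 1.82 Il17a UMIs on average and a gate-negative cell 0.392 ± 0.218. The excess was uneven between cells, since the top 10 cells held 45.2% of the Il17a UMIs of mitotic-phase cells and 53 cells (7.81%) held at least 10 UMIs, against 0.863% of gate-negative cells.

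Il17f, its close relative, was at 23.4, 15.3, 22.8 and 50.6 CPM in mitotic-phase cells and 8.55, 2.79, 3.08 and 3.30 CPM in gate-negative cells, again with no overlap. Its log2 fold change was 2.75 ± 0.30 (adjusted p 7.8e-07), and 1.49 (adjusted p 0.0090) in the depth window. The top 10 cells held 71.3% of its UMIs.

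Il22, which acts on gut epithelium, did not follow with the same firmness. It was at 229, 161, 32.1 and 37.7 CPM in mitotic-phase cells and 122, 101, 60.3 and 37.4 CPM in gate-negative cells, so libraries 1 and 2 were higher, library 3 lower and library 4 level. The log2 fold change of 0.54 ± 0.16 (adjusted p 0.0081) was lost without library 1 (0.26, adjusted p 0.25) and without library 2 (0.44, adjusted p 0.074). It did not pass without the library block (0.67, adjusted p 0.31), was -0.45 in the depth window (adjusted p 0.39) and -0.70 without barcodes that held 2 or more markers of other cells (adjusted p 0.00087). The top 10 cells held 66.1% of the UMIs.

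Ifng, the macrophage-activating cytokine of Th1 cells, was at 248, 139, 154 and 216 CPM in mitotic-phase cells and 285, 326, 319 and 274 CPM in gate-negative cells. All 4 mitotic-phase values lay below the other class (log2 fold change -0.55 ± 0.12, adjusted p 0.00081). Il2, the T cell growth factor, was at 34.9, 15.3, 12.8 and 62.6 CPM against 51.7, 49.2, 55.8 and 61.9 CPM, with overlap, and its fall (-0.65 ± 0.20, adjusted p 0.012) rested on few cells, as the top 10 held 71.0% of its UMIs. Without library 2 the adjusted p of Il2 was 0.075, and without library 3 it was 0.061, and its fall did not pass with DESeq2 (adjusted p 0.079) or without the library block (adjusted p 0.11). Without barcodes that held markers of other cells Il2 was at -0.28 (adjusted p 0.28), and in the depth window at -1.61 (adjusted p 2.7e-05). Cd40lg, the helper signal to B cells, was at 286, 319, 283 and 312 CPM in mitotic-phase cells and 610, 732, 685 and 719 CPM in gate-negative cells (-1.09 ± 0.04, adjusted p 6.0e-13).

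Other helper products were lower as well. Areg, a growth factor for epithelium, averaged 166 ± 61.3 CPM in mitotic-phase cells and 288 ± 65.4 CPM in gate-negative cells, with overlapping ranges (log2 fold change -0.71 ± 0.06, adjusted p 8.2e-08). Il10, which restrains inflammation, averaged 41.3 ± 12.1 and 64.6 ± 15.6 CPM (-0.58 ± 0.11, adjusted p 0.00035), a call lost without barcodes that held markers of other cells (-0.41, adjusted p 0.072). Ltb, Tnf and Il21 were lower in all 4 libraries without overlap, with log2 fold changes of -0.86, -0.69 and -0.65. Il21 did not pass without barcodes that held markers of other cells (-0.48, adjusted p 0.067). The fall of Tnf did not pass in the depth window (-0.18, adjusted p 0.42). Il4 was lower too (-1.09), at 8.44 ± 6.15 and 18.4 ± 11.96 CPM, but not with DESeq2 (adjusted p 0.084) or without the library block (adjusted p 0.21). After thinning to 2000 UMIs per cell, with the classes chosen again, Tnf, Il21 and Il4 did not pass (adjusted p 0.30, 0.19 and 0.64). Tgfb1 was 0.28 higher on the log2 scale and -0.09 in the depth window (adjusted p 0.39). Il3 had no UMI in 679 mitotic-phase cells, which allows a share of up to 0.442% of cells with a UMI.

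**Figure D2:**
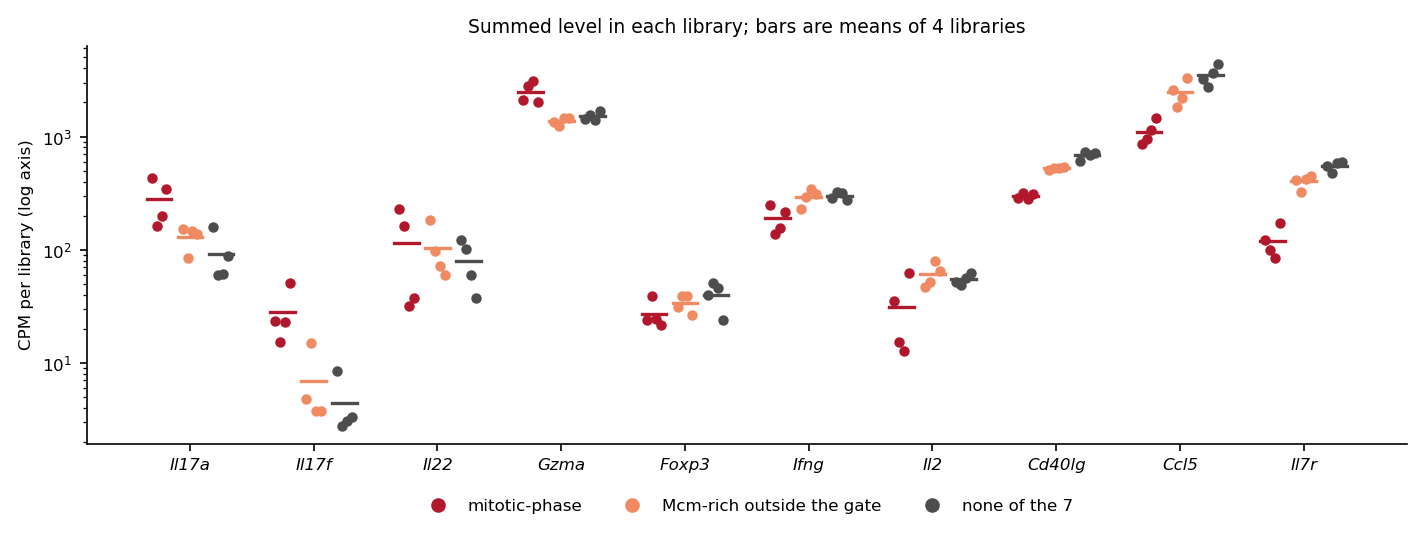
Levels in CPM (log axis) of 10 transcripts in each of the 4 libraries (points) with their means (bars), for mitotic-phase cells, Mcm-rich cells and cells with none of the 7 genes. All 4 mitotic-phase points of Il17a lie at or above 161 CPM, while those of Il7r lie at or below 171 CPM, under every point of the other classes.

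Chemokines were low in the dividing cells. Of 5 tested, 4 were lower: Ccl5, Ccl4, Ccl3 and Xcl1. Ccl5, an attractant of T cells and monocytes, was at 853, 949, 1139 and 1471 CPM in mitotic-phase cells and 3195, 2758, 3649 and 4408 CPM in gate-negative cells, with no overlap (log2 fold change -1.58 ± 0.05, adjusted p 5.0e-14). Per cell its UMIs were about level, at 14.1 in mitotic-phase and 14.7 in gate-negative cells. Ccl4 averaged 39.2 ± 20.3 CPM against 181 ± 58.1 CPM (-2.14 ± 0.09). Xcl1, which attracts cross-presenting dendritic cells, averaged 212 ± 34.96 against 359 ± 43.7 CPM (-0.65 ± 0.07). Ccl3 did not pass without library 4 (-0.78, adjusted p 0.075), without the library block (-1.25, adjusted p 0.089) or after thinning (-0.65, adjusted p 0.54). Ccl1 did not pass: library 4 alone had 68.1 CPM, the other libraries 2.40 to 6.11 CPM, and in the depth window it was lower (-2.81, adjusted p 5.0e-07).

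Cytotoxic genes split. Gzma, a granzyme that is abundant in gut T cells, was at 2086, 2790, 3109 and 2002 CPM in mitotic-phase cells and 1429, 1556, 1386 and 1671 CPM in gate-negative cells, with no overlap (log2 fold change 0.80 ± 0.09, adjusted p 1.7e-06). It rose more in the depth window (1.06) and reached 31.1 UMIs per mitotic-phase cell, against 6.34 per gate-negative cell. Prf1, the pore former that lets granzymes into target cells, was lower, at 6.24 ± 1.82 and 25.0 ± 5.30 CPM (-1.92 ± 0.15). Fasl, a death ligand, was lower, at 73.6 ± 10.2 and 215 ± 20.8 CPM (-1.45 ± 0.06). Nkg7, Gzmb and the receptors Klrd1 and Klrk1 made up the other calls among 6 lower of 10, and the fall of Gzmb (-0.14, adjusted p 0.042) was lost in most alternatives. Crtam, an adhesion receptor of activated T cells, was higher over all depths (1.04) but -0.57 in the depth window (adjusted p 0.45). Its rise did not pass with at least 4 of the 7 genes (0.79, adjusted p 0.071) or after thinning (0.98, adjusted p 0.26). Gzmk averaged 108 ± 29.7 and 112 ± 20.9 CPM and did not pass. It was higher in the depth window (0.44, adjusted p 0.041) and without barcodes that held markers of other cells (0.28, adjusted p 0.049). Its direction turned in 4 of 16 alternatives.

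Foxp3, the lineage factor of regulatory T cells, was at 24.1, 38.8, 24.3 and 21.4 CPM in mitotic-phase cells and 39.5, 50.7, 46.0 and 24.0 CPM in gate-negative cells. Each library was lower in the mitotic-phase class, but the ranges overlapped. The log2 fold change was -0.44 ± 0.11 (adjusted p 0.0030), and -1.10 (adjusted p 3.5e-06) in the depth window. It did not pass once barcodes with 2 or more markers of other cells were left out (-0.19, adjusted p 0.33) or without the library block (-0.46, adjusted p 0.14). Per cell, Foxp3 averaged 0.338 UMIs in mitotic-phase and 0.166 in gate-negative cells. In all, 79 mitotic-phase cells held a Foxp3 UMI, or 11.5% ± 2.62 of the class, against 7.32% ± 1.59 of the shallower gate-negative cells.

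Foxp3 cells of both classes carried other transcripts of regulatory T cells. Ikzf2 (Helios), a factor of regulatory cells, was found in 73 (92.4%) of the mitotic-phase Foxp3 cells and in 90.9% of the 1314 Foxp3 cells of the gate-negative class. Areg was found in 72.2% and 70.2%, and Il10 in 35.4% and 34.2%. Gata3, a Th2 factor that some regulatory cells also carry, was found in 73.4% and 64.8%. Depth moves with these shares, and its part in them was not tested.

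Among 25 lineage factors tested, 4 were higher and 13 lower (median log2 fold change -0.39). Only some of them are named here. Myb, a factor of progenitors and proliferating T cells, was at 21.6, 12.5, 7.85 and 11.6 CPM in mitotic-phase cells and 6.82, 3.37, 2.97 and 2.08 CPM in gate-negative cells, with no overlap (1.95 ± 0.21, adjusted p 7.8e-07). It was 0.79 in the depth window (adjusted p 0.038) and did not pass after thinning (1.51, adjusted p 0.10). Batf (0.32) and Id3 (0.44) were also higher, and neither passed in the depth window (adjusted p 0.25 and 0.21). Of 16 alternatives, 13 kept the call of Batf and 5 that of Id3. Leaving out any 1 library lost the call of Id3 (adjusted p 0.061 to 0.13). Tbx21, the Th1 factor, averaged 45.8 ± 5.03 CPM and 82.6 ± 7.26 CPM (-0.76 ± 0.07, adjusted p 1.7e-07), with a smaller fall in the depth window (-0.24, adjusted p 0.13). Maf (-0.55), Gata3 (-0.55), Tcf7 (-0.66) and Ahr (-0.42) were lower in every library and passed in the depth window too. Ikzf2 did not pass over all depths (-0.10, adjusted p 0.15). It was lower in the depth window (-0.37, adjusted p 0.0014) and after thinning (-0.35, adjusted p 0.030). Without barcodes that held markers of other cells it was at 0.0644 (adjusted p 0.47).

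**Figure D3:**
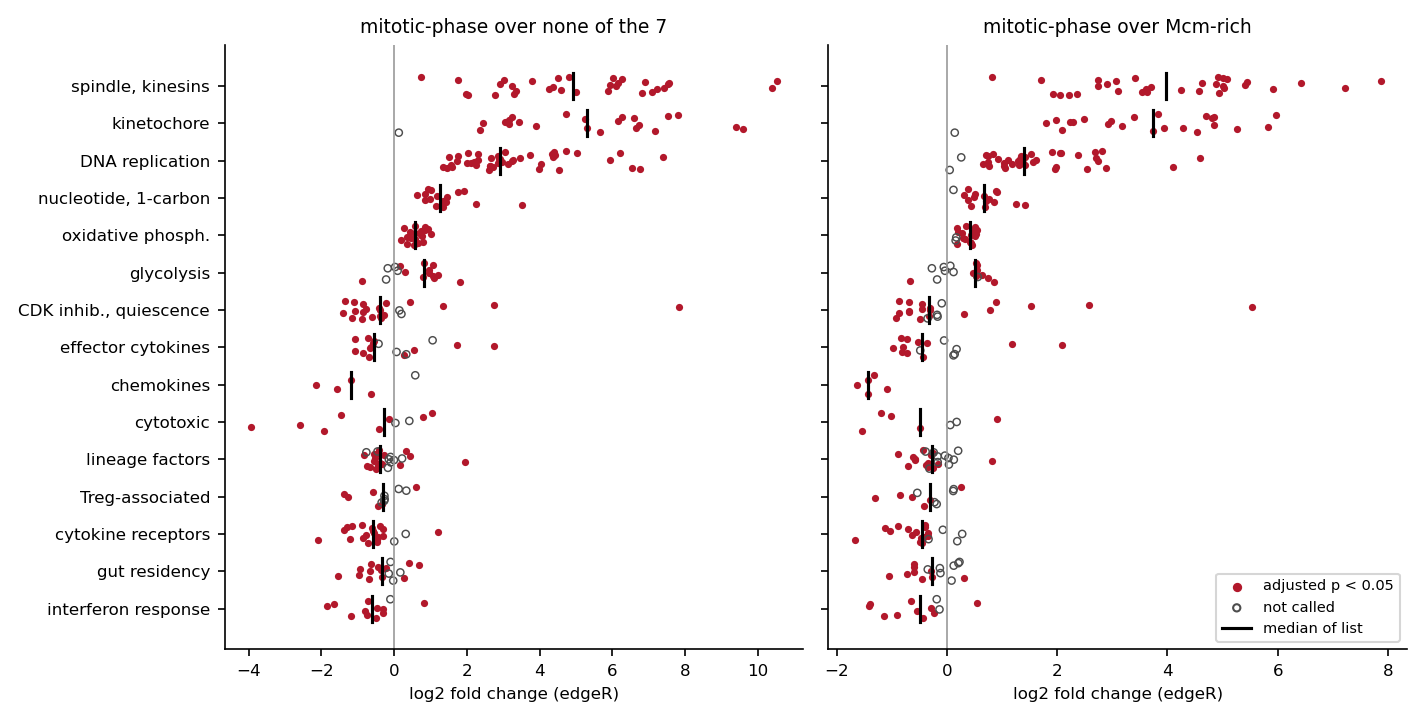
Fitted log2 fold change of each list gene (points, filled where the adjusted p is under 0.05) and list medians (black bars), for mitotic-phase over none-of-7 cells on the left and over Mcm-rich cells on the right. Spindle genes sit around 4.91 on the left and 3.97 on the right, while cytokine receptors lie mostly below 0 on both sides.

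To compare detection without the depth gap, each cell was thinned to 2000 UMIs, which kept 675 mitotic-phase, 1538 Mcm-rich and 17184 gate-negative cells. As a background, 184 naive-like cells of the gate-negative class, chosen by naive-cell transcripts such as Ccr7 and with no Foxp3 UMI, gave the share in cells that should lack effector transcripts. Before thinning the median depths were 11377, 6153, 3760 and 4572 UMIs in mitotic-phase, Mcm-rich, gate-negative and naive-like cells. These shares are given as a description, with no test.

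Il17a was found in 8.86% ± 4.01 of thinned mitotic-phase cells, 2.85% ± 0.175 of Mcm-rich cells and 1.90% ± 0.574 of gate-negative cells, over a background of 0.321% ± 0.641. Unthinned, the shares were 12.2% of mitotic-phase and 2.20% of gate-negative cells. By library the thinned mitotic-phase shares were 13.5, 5.03, 6.03 and 10.9%, each above the other class of its library (2.67, 1.59, 1.36 and 1.97%). Il22 was found in 5.94% ± 2.4998, 3.12% ± 2.14 and 1.51% ± 1.07 of the same 3 classes. By library the Il22 shares were 9.30, 6.15, 3.45 and 4.85% of mitotic-phase cells and 2.92, 1.70, 0.968 and 0.461% of gate-negative cells, higher in each.

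Other effectors did not share that pattern. Ifng was found in 20.9% ± 3.996 of thinned mitotic-phase cells, 24.3% ± 2.59 of Mcm-rich and 23.3% ± 1.38 of gate-negative cells, over a background of 4.27%. Il2 was found in 3.77% ± 1.38, 7.19% ± 0.888 and 8.01% ± 1.21. Gzma was found in 45.1% ± 7.28, 36.2% ± 1.12 and 34.2% ± 1.63, but in library 4 its share was 34.5% of mitotic-phase and 35.5% of gate-negative cells. Foxp3 stood at 4.15% ± 0.922, 3.89% ± 1.06 and 4.75% ± 1.44, which overlap between libraries, and Ikzf2 at 23.3%, 25.0% and 23.7%. Tbx21 stood at 9.95% ± 2.02, 15.9% ± 1.18 and 14.9% ± 1.24.

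**Figure D4:**
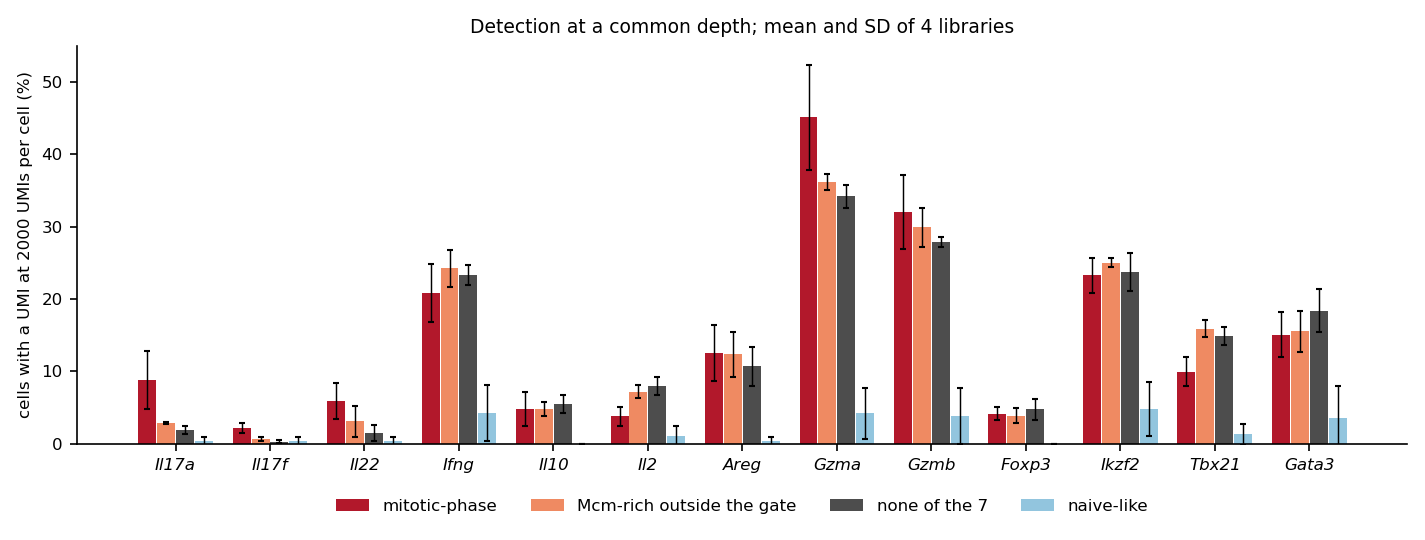
Share of cells (%) with a UMI of each transcript after thinning to 2000 UMIs, as mean and SD of 4 libraries, for mitotic-phase, Mcm-rich, none-of-7 and naive-like cells. Il17a stands at 8.86% in mitotic-phase cells against 1.90% in none-of-7 cells; Foxp3 is 0 in naive-like cells because they were defined without it.

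Each cell was also put in 1 class by the first of these transcripts it held: Foxp3, then Il17a, Il17f or Il22, then Il4, Il5 or Il13, then Ifng. At 2000 UMIs, 13.3% ± 3.84 of mitotic-phase cells fell in the interleukin-17 and interleukin-22 class, against 3.10% ± 1.27 of gate-negative cells. The Ifng class held 17.5% ± 2.54 and 22.1% ± 1.98. Foxp3 cells made up 4.15% ± 0.922 and 4.75% ± 1.44, and type 2 cytokine cells 1.44% ± 0.845 and 1.72% ± 1.03. Most mitotic-phase cells, 63.6% ± 4.43, held none of these transcripts at that depth, against 68.3% ± 1.98 of gate-negative cells.

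Il17a cells of the mitotic-phase class often held a second cytokine. Of 87 such cells at full depth, 47 held Il22 (54.0%), 41 held Ifng (47.1%) and 25 held Il17f (28.7%). Of 390 Il17a cells of the gate-negative class, 21.8% held Il22, 23.6% Ifng and 12.6% Il17f. Foxp3 was found in 3 of the 87 (3.45%) and in 5.13% of the 390. The greater depth of mitotic-phase cells moves with these shares, and its part in them was not tested.

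Turned round, the mitotic-phase share was counted among all kept cells of the depth window with and without a transcript. Foxp3 cells were mitotic-phase in 14.9, 9.60, 8.96 and 11.6% of cases in libraries 1 to 4, against 29.2, 17.7, 19.9 and 23.1% of cells without Foxp3. The share was lower with Foxp3 in each library. Il17a cells were mitotic-phase in 35.3, 22.2, 30.0 and 42.9% of cases, against 25.6, 15.5, 16.9 and 18.99% of cells without it, higher in each library. Of Il2 cells 11.03% ± 2.97 were mitotic-phase and of cells without Il2 22.5% ± 5.54, and of Ifng cells 16.9% ± 5.34 and of cells without Ifng 23.8% ± 4.69. For Gzma the shares were 20.3% ± 4.46 with it and 20.7% ± 6.29 without it. These shares are high because the window was set on mitotic-phase depth, so they are given only as a contrast within a library. Depth still differed inside the window, with a median of 10786 UMIs in Il17a cells and 9898 UMIs in cells without Il17a. The medians with and without the transcript were 10105.5 and 9896 UMIs for Foxp3, and 9936 and 9952 UMIs for Il2. The part of depth in these contrasts was not tested.

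**Figure D5:**
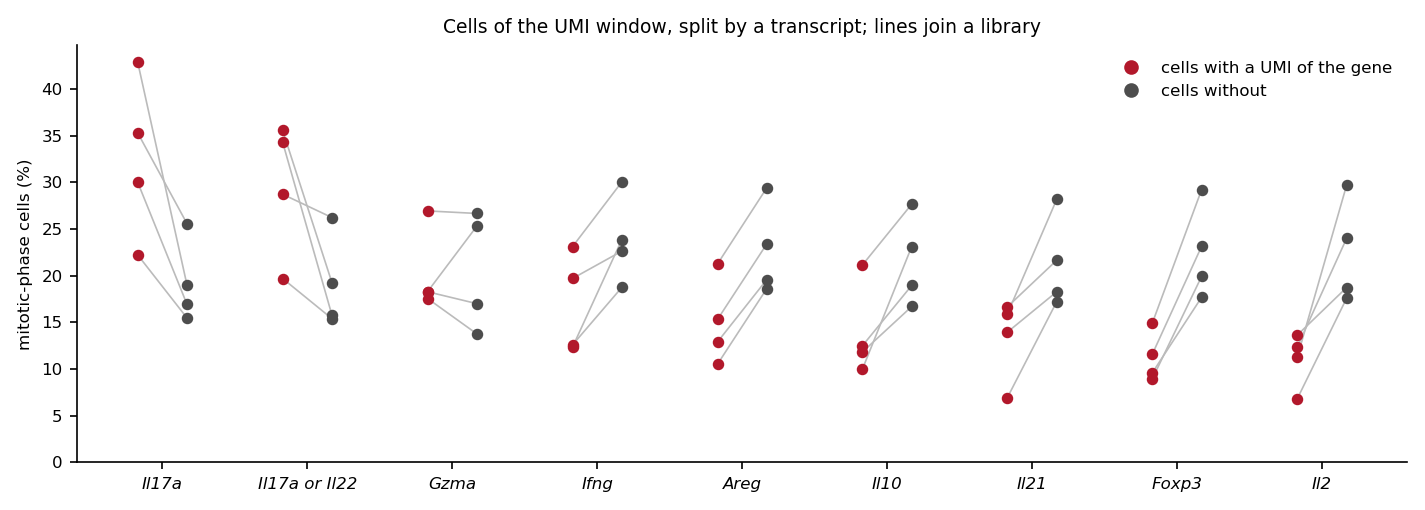
Mitotic-phase share (%) among kept cells of the depth window that hold a transcript and that lack it, with lines joining the values of 1 library. Lines for Foxp3 run from 8.96 to 14.9% with the transcript and from 17.7 to 29.2% without it, and those for Il17a lie the other way.

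Cytokine receptors fell as a group: 18 of 21 were lower and 1 higher (median log2 fold change -0.59), and in the depth window 15 of 19 were lower and none higher. Il7r, the receptor chain for the survival cytokine interleukin-7, was at 121, 98.7, 84.9 and 171 CPM in mitotic-phase cells and 554, 474, 584 and 596 CPM in gate-negative cells (-2.10 ± 0.09, adjusted p 4.5e-12). Its log2 fold change was -2.12 in the depth window, and per cell it was lower as well, at 1.53 UMIs against 2.32. Il18r1 averaged 54.2 ± 8.92 CPM against 155 ± 12.1 CPM (-1.39) and Il12rb2 85.5 ± 14.3 against 227 ± 16.7 CPM (-1.29), both receptors for cytokines that drive Ifng. Ifngr1, the interferon-gamma receptor, was lower by the same test (-0.90).

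Genes tied to rest fell, apart from some inhibitors of cyclin-dependent kinases. Of 22 genes, 16 were lower and 4 higher, Cdkn3 and Cdkn2c among the higher. Btg1, an anti-proliferative factor of resting lymphocytes, averaged 983 ± 139 CPM in mitotic-phase cells and 2670 ± 162 CPM in gate-negative cells (-1.35 ± 0.04). Btg2, its relative, averaged 315 ± 30.3 and 725 ± 63.8 CPM (-1.10 ± 0.04). Cdkn2c (p18), by contrast, averaged 90.3 ± 9.37 and 14.3 ± 1.07 CPM (2.76 ± 0.10, adjusted p 3.8e-13).

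Metabolic lists were higher. All 19 oxidative phosphorylation genes rose (median log2 fold change 0.58), and 15 of 19 did so in the depth window with none lower. Cox5a, a subunit of cytochrome oxidase, averaged 631 ± 18.9 CPM in mitotic-phase cells and 358 ± 11.1 CPM in gate-negative cells, and Cycs (cytochrome c) 341 ± 14.5 and 183 ± 9.60 CPM. All 16 nucleotide and one-carbon genes rose (median 1.27), 12 of them in the depth window. Psat1 and Phgdh, enzymes of serine synthesis, had log2 fold changes of 2.26 ± 0.07 and 1.44 ± 0.05. Of 16 glycolysis genes, 11 were higher and 1 lower, led by Tpi1, Gapdh, Pkm and Ldha (1.82, 1.07, 1.08 and 0.96). In the depth window the glycolysis count was 6 higher and 2 lower, and Tpi1 had a log2 fold change of 0.59. Ribosome biogenesis turned round with depth: 9 of 15 were higher over all cells (median 0.43), among them Nop58 and Ncl, but in the depth window 1 was higher and 9 lower of 14 (median -0.32).

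Genes induced by stimulation and genes of gut residency mostly took a smaller share of the UMIs. Stimulation and tissue contact themselves were not tested. Of 13 genes induced by the T cell receptor, 8 were lower and none higher, with Nr4a3 at 92.4 ± 19.1 CPM in mitotic-phase cells and 201 ± 63.2 CPM in gate-negative cells (-1.01 ± 0.08), and Cd69 at 478 ± 34.7 and 655 ± 30.0 CPM (-0.36 ± 0.04). Cd69 did not pass in the depth window (-0.11, adjusted p 0.12). Of 17 gut residency genes 10 were lower and 3 higher. Rgs1, which blunts chemokine signals, averaged 1622 ± 146 and 2813 ± 120 CPM (-0.69 ± 0.03), and Itga1, a collagen-binding integrin, 11.3 ± 0.947 and 34.5 ± 3.66 CPM (-1.54 ± 0.13). Of 14 co-stimulatory and co-inhibitory genes 8 were lower and 3 higher, with Icos at -0.31 and Tigit at -0.42. Cd44 was lower (-0.41).

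Of 12 genes associated with regulatory T cells 5 were lower and 1 higher. Il1rl1, the receptor of the alarmin interleukin-33, was at 8.27, 15.3, 6.42 and 2.14 CPM in mitotic-phase cells and 19.7, 30.7, 24.4 and 14.7 CPM in gate-negative cells, with overlap (-1.37 ± 0.19, adjusted p 1.3e-05). Tnfrsf18 (GITR) averaged 171 ± 25.9 and 252 ± 30.2 CPM (-0.45 ± 0.07), and Itgb8, which helps activate TGF-beta, 2.60 ± 1.23 and 6.85 ± 0.797 CPM (-1.26 ± 0.28). Itgb8 did not pass without barcodes that held markers of other cells (-0.82, adjusted p 0.066). Capg, an actin-capping protein, was higher (0.60) but -0.04 in the depth window (adjusted p 0.74).

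Of 12 interferon-response genes, 10 were lower and 1 higher. Gbp2, a guanylate-binding protein induced by interferon-gamma, averaged 76.4 ± 8.71 CPM in mitotic-phase cells and 136 ± 20.9 CPM in gate-negative cells (-0.72 ± 0.06). Ifit1 had a log2 fold change of -1.64. Ifi27l2a was the exception, at 905, 1318, 1213 and 1488 CPM against 663, 741, 749 and 819 CPM, with no overlap (0.81 ± 0.05, adjusted p 1.2e-09). Among 14 genes of tissue-dissociation stress 3 chaperone genes were higher, such as Hspa8 (0.66), and 9 were lower, such as Junb (-0.78).

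Mcm-rich cells, chosen by a rule of the same form on other genes, were the other class set against mitotic-phase cells. Of the 1545 Mcm-rich cells, 987 held none of the 7 genes and are also among the gate-negative cells. The fit tested 9392 genes, of which 41.8% passed, 21.8% higher and 20.0% lower in mitotic-phase cells, and 52.1% of the calls were higher with TMM and 40.2% with library size alone. Spindle genes were higher in 32 of 32 cases (median log2 fold change 3.97), and 36 of 38 DNA replication genes other than the 6 Mcm genes were higher too (median 1.40). After thinning, with both classes chosen again on the thinned counts, 9 of 32 DNA replication genes were higher and 1 lower (median 0.18), where 16.3% of 3609 genes passed, 9.28% higher and 7.07% lower. All 25 spindle genes tested there were higher (median 3.21). Of mitotic-phase cells, 75.9% ± 5.24 had at least 3 Mcm genes as well.

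Effector transcripts are given beside the earlier values, and both comparisons share the mitotic-phase sums. Il17a was at 154, 83.8, 148 and 138 CPM in Mcm-rich cells, below every mitotic-phase value (log2 fold change 1.18 ± 0.10, adjusted p 3.2e-08), though without barcodes that held markers of other cells it did not pass (0.52, adjusted p 0.087). Il17f was higher too (2.09 ± 0.35, adjusted p 0.00010), as was Gzma (0.91 ± 0.08). Il22 (0.18, adjusted p 0.41) and Foxp3 (-0.24, adjusted p 0.14) did not pass. Ifng was lower (-0.52 ± 0.13, adjusted p 0.0032) but higher in mitotic-phase cells of library 1, and its call was lost with DESeq2 (-0.57, adjusted p 0.15) and after thinning (-0.27, adjusted p 0.31). Il7r (-1.67), Ccl5 (-1.09), Cd40lg (-0.73) and Tbx21 (-0.70) were lower in each library, and Tbx21 did not pass after thinning (-0.33, adjusted p 0.49). Xcl1 averaged 212 ± 34.99 CPM in mitotic-phase cells and 619 ± 129 CPM in Mcm-rich cells (-1.43 ± 0.08, adjusted p 5.0e-11), while gate-negative cells averaged 359 CPM. Crtam was lower than in Mcm-rich cells (-1.20). Over all depths it was higher than in gate-negative cells, a call lost in the depth window and after thinning. Its means were 13.5, 34.2 and 7.43 CPM in mitotic-phase, Mcm-rich and gate-negative cells.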

How the data were processed

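The authors deposited raw UMI counts per gene and cell barcode, made with Cell Ranger 3.0.2 on mm10, per the submitters' processing notes. The annotation version is not given in the sources used here. Libraries held 23918884 to 28783972 UMIs. From these counts, barcodes were filtered as stated in the report, UMIs were summed per library and class, and sums were compared with edgeR 4.0.16 in R 4.3.3 (quasi-likelihood test, TMM scaling, filterByExpr, Benjamini-Hochberg adjustment over all genes tested, adjusted p threshold 0.05). The SE of a log2 fold change is its size over the square root of F. The library was a block in each fit, because both sums of a library come from the same sample. The 7 rule genes were left out, and also the 6 Mcm genes in the Mcm-rich fit. Scrublet (scanpy 1.11.5) marked doublets, which were removed only in an alternative. It marked 3.97% ± 1.22 of mitotic-phase, 10.2% ± 0.770 of Mcm-rich and 4.09% ± 0.154 of gate-negative cells. Alternatives were DESeq2 1.42.0, library size scaling, other thresholds, thinning, a depth window and leaving out each library. The members and gene lists were chosen with earlier results of these data known. Genes named came from the tested effector cytokine, chemokine, cytotoxic and lineage genes. A gene of these lists that is not named may still have passed. Others were the 10 highest and 10 lowest fold changes outside the cell-cycle lists with a mean of at least 20 CPM in 1 class. That ranking took genes past the threshold with the same direction in all 4 libraries. It left out predicted, T cell receptor, immunoglobulin heavy and light chain, ribosomal protein and mitochondrial genes. Up to 4 genes with the smallest p of each other list were named too. Results for a few genes are not reported here.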

Additional observations from a re-analysis of the deposited data

Results flagged for a closer look

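In 92 groups of 4 libraries of the mitotic-phase class, 5 had 1 library far from the other 3 by Dixon's criterion, which chance gives in about 1 in 20 groups. Ccl1 stood at 68.1 CPM in library 4, with 2.40 to 6.11 CPM in the others. Foxp3 stood at 38.8 CPM in library 2, with 21.4 to 24.3 CPM in the others. Il21 was low in library 2, at 6.71 CPM, with 14.3 to 15.1 CPM in the others. Fbxo5 was high in library 3, at 114 CPM, with 85.7 to 86.7 CPM in the others. Klrk1 had 0.429 CPM in library 4 and no UMI in the other 3 libraries.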

How the results depend on the processing

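The mitotic-phase share of 3.01% became 4.86% with at least 2 of the 7 genes, 2.27% without barcodes that held 2 or more markers of other cells, and 1.71% after thinning to 2000 UMIs. Against gate-negative cells, 3068 higher and 3030 lower genes became 1790 and 1511 in the depth window and 1128 and 1282 after thinning, where fewer genes or UMIs enter. Against Mcm-rich cells, 2046 higher and 1881 lower became 1227 and 676 with DESeq2 and 335 and 255 after thinning. The effector and lineage genes tested against gate-negative cells were 17 effector cytokine, 5 chemokine, 10 cytotoxic and 25 lineage genes. Of these, 10 were higher and 32 lower, where 27.7% and 27.4% of all genes were. The 10 higher became 5 in the depth window (21.4% of all genes) and 4 after thinning (1128 of 10070 genes). The 32 lower became 21 after thinning (1282 of 10070 genes). Against Mcm-rich cells 16, 5, 7 and 24 genes of these lists were tested, in the same order. Of these, 4 were higher and 31 lower, where 21.8% and 20.0% of all genes were. The 4 higher became 7 with no filter on low counts, where 4058 of 15744 genes passed. The 31 lower became 18 with DESeq2 (676 of 9392 genes) and 8 after thinning (255 of 3609 genes). Without the replicate block, 2917 genes were higher and 2756 lower against gate-negative cells, and 1802 and 1524 against Mcm-rich cells. Leaving out 1 library gave shares of 2.75 to 3.31%, 2779 to 2975 higher and 2479 to 2700 lower genes. Library size scaling moved the median of all genes to -0.16 from -0.06 (log2), and against Mcm-rich cells to -0.11 from -0.04. Directions turned against gate-negative cells in the depth window for Il22 (-0.45), Tgfb1 (-0.0905), Ccl1 (-2.81), Gzmb (0.0320), Crtam (-0.57) and Capg (-0.0426). They turned without barcodes that held markers of other cells for Il22 (-0.70), Ccl1 (-0.59) and Ikzf2 (0.0644). After thinning they turned for Tgfb1 (-0.00424), Ccl1 (-0.46) and Id3 (-0.66). Ccl1 also turned with DESeq2 (-0.27) and when library 4 was left out (-0.92, with 1.06 the highest value when another was). Gzmk turned with doublets removed (-0.00783), library size scaling (-0.0676), no filter (-0.0217) and when library 4 was left out (-0.12, with 0.21 the highest value when another was). Against Mcm-rich cells Il22 turned with DESeq2 (-0.0896), with doublets removed (-0.19) and without barcodes that held markers of other cells (-1.03). It also turned without library 2 (-0.0606, with 0.36 the highest value when another was left out). Foxp3 turned against Mcm-rich cells without barcodes that held markers of other cells (0.0278). The cause of these changes was not tested.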
